A study of Mus musculus with 6 samples.

Results

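The transcripts of 6 genes that move sodium across the renal tubule were followed in single kidney cells of sham and DOCA-salt mice, out of 33696 genes in the count tables. The genes were taken by symbol, with earlier results of these data known: Atp1b1, Fxyd2 and Fxyd4 encode subunits of the sodium pump or its regulators, Slc9a3 and Slc12a1 encode the main apical routes of sodium entry in the proximal tubule and the thick ascending limb, and Bsnd encodes a subunit of a basolateral chloride channel. Kidneys, 3 from sham and 3 from DOCA-salt animals, were digested with collagenase and sequenced with the 10x Genomics 3′ method, with 1 library per mouse, so the p-values measure the spread between mice. All were male C57BL/6 mice, 8 to 10 weeks old when bought, before the surgery and treatment. The DOCA-salt mice lost the left kidney, received 1 week later a 50 mg pellet of DOCA (deoxycorticosterone acetate, a mineralocorticoid) under the skin, and drank 1% NaCl for 21 days. The sham mice had a sham surgery, no pellet and normal water. Loss of 1 kidney, DOCA and salt therefore came together, and their parts in any difference cannot be told apart.

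The sodium pump (Na+/K+-ATPase) in the basolateral membrane keeps sodium in the cell low, and apical exchangers, cotransporters and channels let sodium enter down that gradient. The pump needs an α subunit, which carries the ions, and a β subunit, which brings the α subunit to the membrane, while small FXYD proteins bind the pump and tune it. The segments of the tubule take up sodium by different apical proteins: NHE3 in the proximal tubule, NKCC2 in the thick ascending limb, the thiazide-sensitive cotransporter in the distal convoluted tubule, and the epithelial sodium channel ENaC, which mineralocorticoids activate, in the connecting tubule and the principal cells of the collecting duct.

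The libraries held 11058 to 14449 barcodes and 93172739 to 137819127 UMIs (unique molecular identifiers, each standing for 1 captured transcript). After filtering, 55630 cells fell into 35 clusters, and 43596 of them belonged to 7 tubule segments named from markers that include none of the 6 genes. The 6 genes were also left out when the clusters were made. The summed markers of each segment were highest in the segment they name, for example 22775 CPM (UMIs of a gene relative to all UMIs of the segment, where 10000 CPM are 1%) in the thick ascending limb and 11753 CPM in the principal cells (means of the sham mice). Pairs of mice shared 18 to 41 barcodes. Levels are CPM per mouse, and changes are log2 changes (DOCA-salt over sham) from edgeR's quasi-likelihood test on counts summed per mouse, scaled by TMM and adjusted over all genes tested (Benjamini-Hochberg, threshold 0.05). A change therefore need not equal the ratio of the CPM means. UMIs of 3′ ends do not rank different genes, so levels were compared only within a gene. All UMIs of a segment include mitochondrial ones, whose share differed between segments. Its median was 33.4% in the main thick ascending limb cluster, 20.6% in the connecting tubule and 10.6% in the principal cells. Orders of segments hold for this scale, and levels without mitochondrial UMIs were not compared between segments. RNA set free by broken cells reaches every droplet, and the level in T or NK cells is given beside low values as the level seen outside the tubule.

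The genes lie on 6 chromosomes of the mouse genome build GRCm39 (GENCODE annotation), and all are protein-coding. Atp1b1 (6 exons) spans chr1:164264678-164285957 on the minus strand, Fxyd2 (6 exons) chr9:45310967-45322004 on the plus strand, Fxyd4 (8 exons) chr6:117910299-117914653 on the minus strand, Slc9a3 (16 exons) chr13:74269360-74317561 on the plus strand, Slc12a1 (27 exons) chr2:124994425-125071922 on the plus strand, and Bsnd (4 exons) chr4:106340653-106349537 on the minus strand. Genes on the opposite strand overlap Atp1b1 (Nme7 and Gm32391), Slc9a3 (Exoc3) and Slc12a1 (Gm14002) and were counted as genes of their own. On the same strand Gm55900 overlaps Fxyd4 and Gm53010 overlaps Bsnd, and on the opposite strand Gm68814 overlaps Fxyd2. These were not among the counted genes. The promoters of the 6 genes differed in CG content. The 250 bases before the start of the canonical transcript held 24 CG dinucleotides in Atp1b1 and in Slc9a3, 3 in Fxyd4 and in Bsnd, 2 in Fxyd2 and 0 in Slc12a1, against a median of 8 over 21757 protein-coding genes, of which 9.34% held at least 24. The 2 extremes and the gene with the largest fall are shown 5′ to 3′ on the strand of the gene, with CG dinucleotides in capitals. The windows are chr1:164285925-164286174 for Atp1b1, chr2:124994175-124994424 for Slc12a1 and chr6:117914297-117914546 for Fxyd4.
Atp1b1: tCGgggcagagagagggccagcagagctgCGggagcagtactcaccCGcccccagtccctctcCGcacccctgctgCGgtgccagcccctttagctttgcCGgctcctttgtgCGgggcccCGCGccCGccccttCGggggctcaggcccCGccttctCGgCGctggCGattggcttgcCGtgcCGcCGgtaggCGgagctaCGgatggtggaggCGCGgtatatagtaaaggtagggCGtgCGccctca
Slc12a1: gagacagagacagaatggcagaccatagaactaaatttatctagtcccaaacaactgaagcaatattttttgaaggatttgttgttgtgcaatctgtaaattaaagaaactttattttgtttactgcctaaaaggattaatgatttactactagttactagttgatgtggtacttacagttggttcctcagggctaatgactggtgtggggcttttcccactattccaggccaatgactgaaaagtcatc
Fxyd4: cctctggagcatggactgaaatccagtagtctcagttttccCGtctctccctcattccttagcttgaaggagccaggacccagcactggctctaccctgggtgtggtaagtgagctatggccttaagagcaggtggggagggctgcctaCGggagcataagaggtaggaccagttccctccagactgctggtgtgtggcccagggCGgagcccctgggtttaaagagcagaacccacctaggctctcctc
The letters AGAACA, searched on both strands, which occur in binding elements of the mineralocorticoid and glucocorticoid receptors, stood in 0 of the 6 windows and in 14.3% of those of all genes. This describes only these letters in these windows. The windows of Fxyd2, Fxyd4 and Slc9a3 lie inside the annotated span of their gene, and that of Atp1b1 partly does. Other annotated starts of these genes were not examined.

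In the sham mice the 6 genes divided the tubule between them. Atp1b1, the β1 subunit that every segment needs, was found in all 7 segments, from 965 ± 33.4 CPM in the proximal tubule to 3602 ± 281 CPM in the connecting tubule (mean ± SD, n = 3), against 215 ± 66.9 CPM in T or NK cells. The order from the top was connecting tubule, thick ascending limb, distal convoluted tubule, principal cells, intercalated cells, thin limb and proximal tubule. Among neighbours in this order only the connecting tubule and the thick ascending limb overlapped between mice. The order holds for CPM of all UMIs, mitochondrial ones included. Fxyd2, the γ subunit, was highest in the distal convoluted tubule (6616 ± 812 CPM) and the proximal tubule (5183 ± 736 CPM), which overlapped, and lowest in the principal cells (521 ± 186 CPM), where it was below its level in T or NK cells (830 ± 327 CPM). Fxyd4, which encodes CHIF (corticosteroid hormone-induced factor), a regulator that raises the pump's affinity for sodium, had the reverse pattern: 6117 ± 727 CPM in the principal cells, 661 ± 147 CPM in the connecting tubule and 15.9 ± 5.94 CPM in the thick ascending limb.

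The entry routes were more restricted. Slc12a1, the Na-K-2Cl cotransporter NKCC2, reached 7705 ± 966 CPM in the thick ascending limb, which held 93.0% of its UMIs in the sham mice, and was next highest in the distal convoluted tubule with 123 ± 22.2 CPM, against 94.4 CPM in T or NK cells. Slc9a3, the sodium-hydrogen exchanger NHE3, was higher in the thick ascending limb (234 ± 31.4 CPM) than in the proximal tubule (69.3 ± 4.10 CPM), without overlap between mice. The proximal tubule still gave 68.5% of its UMIs and held 62.3 to 66.9% of the cells of a sham mouse. From the distal convoluted tubule onward the mean of Slc9a3 was at most 5.96 CPM, below that in T or NK cells (14.5, 4.42 and 12.7 CPM). Bsnd, barttin, the subunit of the basolateral chloride channel, was highest in the intercalated cells (99.9 ± 3.72 CPM), followed by the thick ascending limb (80.5 ± 6.63 CPM), the distal convoluted tubule (53.7 ± 9.94 CPM) and the connecting tubule (51.7 ± 9.31 CPM). In the proximal tubule, the thin limb and the principal cells its mean was 1.18 to 1.71 CPM, and in T or NK cells 0.848 CPM.

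**Figure D1:**
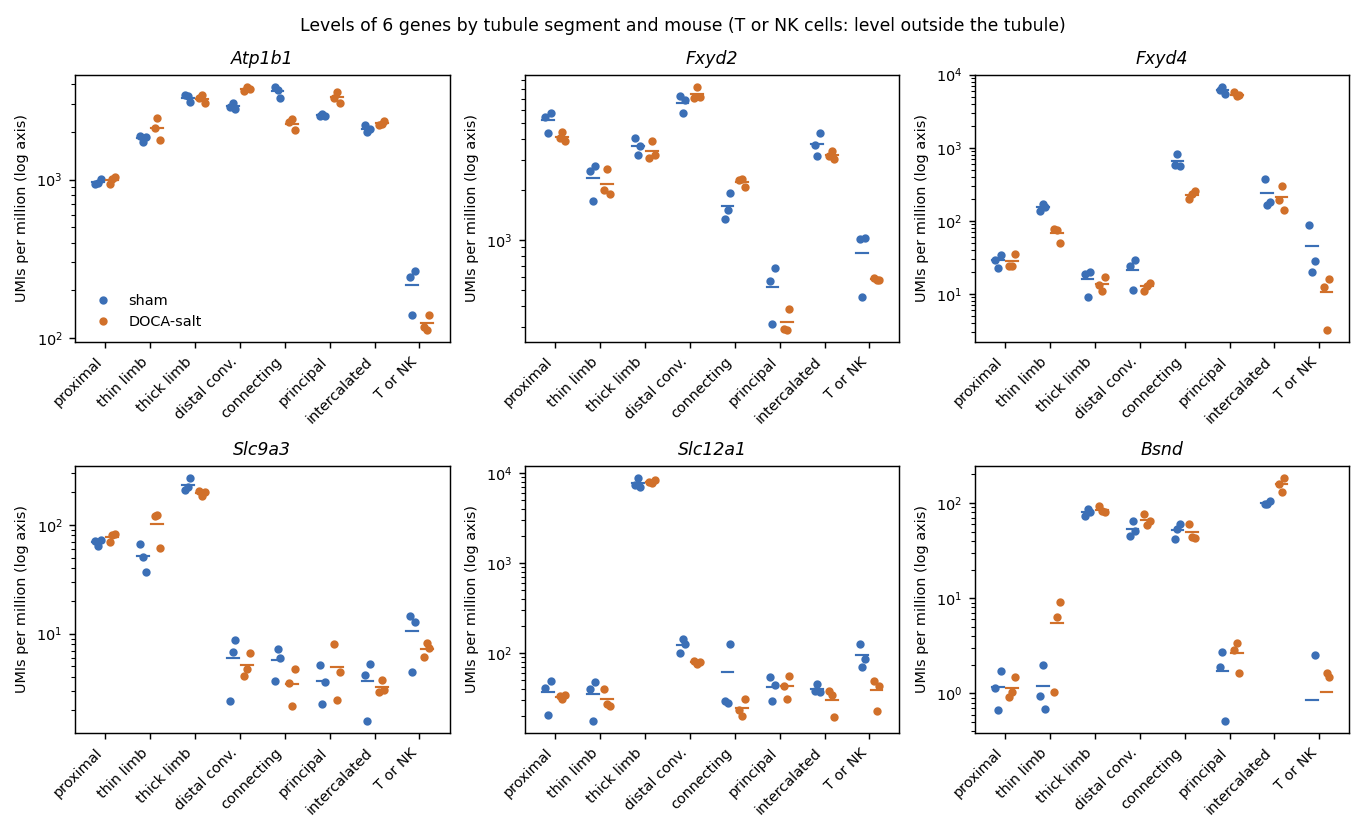
Levels of the 6 genes in CPM (log axis) in 7 tubule segments and in T or NK cells. Each point is 1 mouse, the lines are group means, blue is sham and orange is DOCA-salt, and mice at 0 (Bsnd in T or NK cells) have no point. Atp1b1 is present throughout the tubule, Fxyd4 peaks in the principal cells, Slc12a1 in the thick ascending limb and Bsnd in the intercalated cells.

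Within a segment the genes also varied between clusters. In the thick ascending limb, split at a finer resolution, Fxyd2 had a sham mean of 6720 CPM in the cells led by Sgcz and Tmem207 and 2500 CPM in those led by Egf, Umod and Casr, while Slc12a1 was nearly even between them (8365 and 7836 CPM). In a cluster led by Nos1 and Pappa2, genes of the macula densa, Atp1b1 was 2456, 2333 and 2136 CPM in the sham mice, below the values of 3504, 3456 and 3198 CPM in the main cluster of the segment. The 2 clusters of intercalated cells differed in Fxyd2 as well: the cluster led by Slc26a4, the pendrin gene of the bicarbonate-secreting type, had 4509 ± 740 CPM and the cluster led by Slc4a1, the anion exchanger of the acid-secreting type, had 2216 ± 520 CPM in the sham mice. These clusters were made from the same cells, so the values are a description.

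The bulk entry routes did not pass the test in the segments that carry them. Of the 6 genes, 0 passed the test in the proximal tubule and 0 in the thick ascending limb, where 6.47% and 1.46% of all genes tested did. In the thick ascending limb Slc12a1 was 7321, 8803 and 6990 CPM in sham mice and 8012, 7763 and 8273 CPM in DOCA-salt mice. The groups overlapped, and the log2 change was 0.06 (SE 0.142, adjusted p = 0.927). Slc9a3 in the proximal tubule was 71.3, 64.5 and 71.9 CPM in sham and 69.7, 81.1 and 82.4 CPM in DOCA-salt mice, which overlapped, with a log2 change of 0.10 (SE 0.101, adjusted p = 0.587). In the S1/S2-like clusters of the proximal tubule, where 3.86% of genes passed, it was 73.1, 68.7 and 76.5 CPM in sham and 76.9, 87.7 and 88.9 CPM in DOCA-salt mice, which did not overlap, with a change of 0.15 (adjusted p = 0.468), and in the S3-like clusters, where 11% did, it was -0.02 (adjusted p = 0.926).

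In the thick ascending limb Slc9a3 was 210, 223 and 270 CPM in sham and 207, 185 and 199 CPM in DOCA-salt mice. Every DOCA-salt mouse lay below every sham mouse, but the log2 change of -0.26 (SE 0.134) missed the threshold (adjusted p = 0.470). Its difference from the change in the proximal tubule was -0.37 (SE 0.125, adjusted p = 0.112), in a test that 3.73% of genes passed. Bsnd in the thick ascending limb was 73.7, 87.0 and 80.8 CPM in sham and 93.5, 81.6 and 80.2 CPM in DOCA-salt mice. These values overlapped, with a log2 change of 0.08 (SE 0.116, adjusted p = 0.851).

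The thin limb held Slc9a3 at 67.0, 50.7 and 36.5 CPM in sham and 121, 123 and 61.1 CPM in DOCA-salt mice. The third DOCA-salt mouse lay within the sham range, and the log2 change of 1.03 (SE 0.264) had an adjusted p of 0.131, where 0.782% of genes passed. The segment was made of a cluster led by Slc14a2, with a mean of 4.93 CPM of Slc9a3 in sham mice, and a cluster led by Fst, with 296 CPM. The Fst-led cluster made up 46 to 77 of 229 to 264 thin limb cells of a sham mouse and 65 to 90 of 141 to 184 of a DOCA-salt mouse. Within each cluster the change of Slc9a3 was close to 0, at -0.11 (adjusted p = 0.979) in the Slc14a2-led cluster, where 0.427% of genes passed, and 0.15 (adjusted p = 0.937) in the Fst-led cluster, where 0.274% did.

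The pump β subunit changed in the connecting tubule. Atp1b1 there was 3838, 3677 and 3291 CPM in the sham mice and 2314, 2402 and 2055 CPM in the DOCA-salt mice. All DOCA-salt mice lay below all sham mice, and the gene fell by 0.86 on the log2 scale (SE 0.157, adjusted p = 9.84e-04), to 0.55 of the sham level. With cells assigned by their markers without clusters the change was -0.28 and missed the threshold (adjusted p = 0.352). The connecting tubule had been the segment with the highest mean CPM of Atp1b1 in sham mice. In DOCA-salt mice it overlapped the intercalated cells (2217 to 2357 CPM) and the thin limb (1785 to 2462 CPM). The share of all genes that passed was also the highest of the 7 segments here: 24.9%, of which 12.4% were higher and 12.5% lower.

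The neighbouring segments did not follow. In the principal cells Atp1b1 was 2527, 2604 and 2530 CPM in sham and 3275, 3588 and 3040 CPM in DOCA-salt mice. The groups did not overlap, with DOCA-salt above, but the log2 change of 0.42 (SE 0.146) missed the threshold (adjusted p = 0.105), in a segment where 7.98% of genes passed, 4.5% higher and 3.48% lower. In the distal convoluted tubule it was 2857, 3062 and 2799 CPM in sham and 3649, 3863 and 3726 CPM in DOCA-salt mice, again without overlap and above, with a log2 change of 0.22 (SE 0.164, adjusted p = 0.505). In the intercalated cells the DOCA-salt mice were also above, by 0.16 (SE 0.128, adjusted p = 0.560), whereas the proximal tubule (-0.02, adjusted p = 0.932) and the thick ascending limb (-0.02, adjusted p = 0.970) overlapped between groups, as did the thin limb (0.24, adjusted p = 0.646).

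The differences between segments were tested in 1 model per pair of segments with the mouse as a block. The change of Atp1b1 in the connecting tubule was lower than in the proximal tubule by -0.85 (SE 0.168, adjusted p = 1.33e-04, and -0.27, adjusted p = 0.578, with cells assigned by markers without clusters), than in the principal cells by -1.27 (SE 0.110, adjusted p = 7.01e-09) and than in the distal convoluted tubule by -1.06 (SE 0.132, adjusted p = 6.72e-07). Of all genes, 17.1%, 17.3% and 11.5% passed these tests. The last 2 pairs were chosen after the values were seen and were not recomputed with cells assigned by markers without clusters. The change in the principal cells was higher than in the proximal tubule by 0.45 (SE 0.108, adjusted p = 0.0127), where 7.64% of genes passed, but missed the threshold when sham mouse 1 or 3 or DOCA-salt mouse 1 or 2 was left out (adjusted p 0.0678 to 0.266). The differences from the proximal tubule were -0.02 for the thick ascending limb (adjusted p = 0.971), 0.26 for the distal convoluted tubule (adjusted p = 0.457, 8.99% of genes past the threshold) and 0.17 for the intercalated cells (adjusted p = 0.327, 6.51%).

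**Figure D2:**
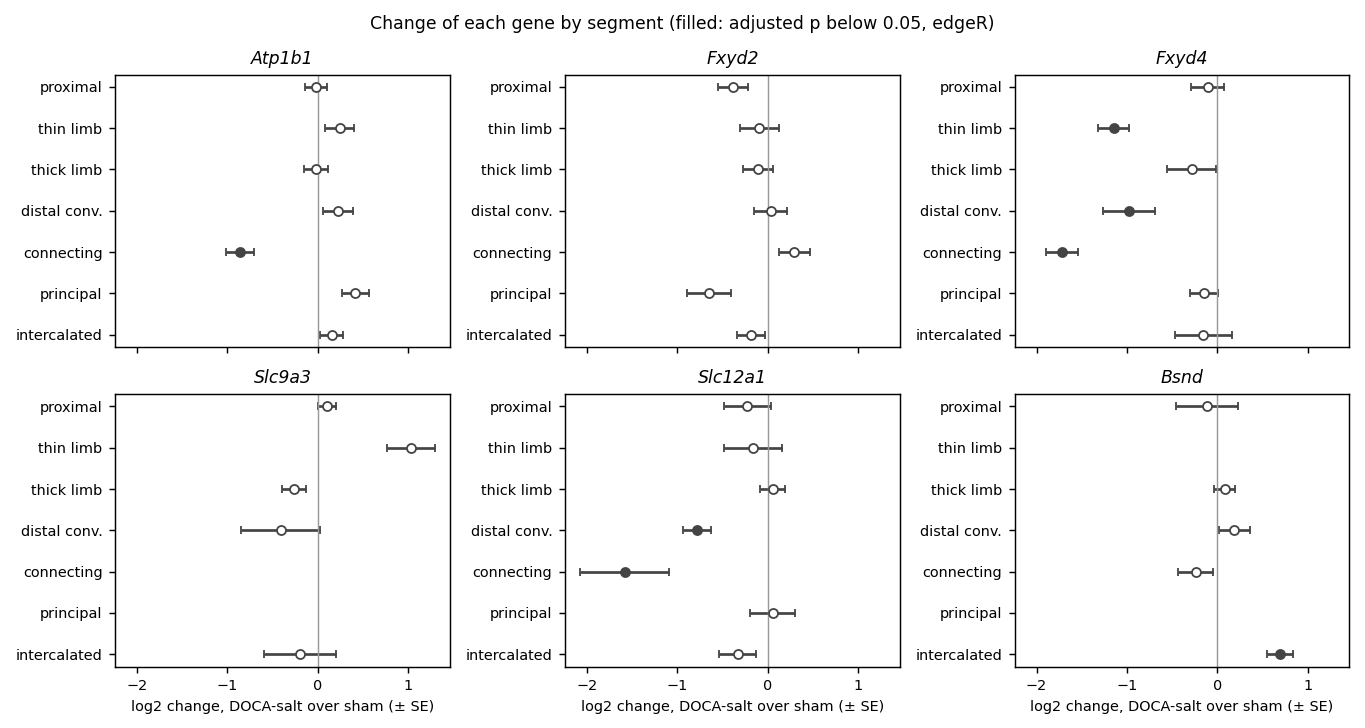
Log2 change (DOCA-salt over sham, with its SE) of each of the 6 genes in 7 tubule segments, from edgeR on counts summed per mouse, 3 mice a group. Filled points passed the threshold of 0.05 on adjusted p, and segments with too few counts for a test have no point. Atp1b1 and Fxyd4 are lowest in the connecting tubule, and Bsnd passed in the intercalated cells.

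The cells of the connecting tubule cluster differed between the groups in segment markers too. Aqp2 and Aqp3, the water channels of principal cells, were 1362, 1304 and 1351 CPM and 544, 478 and 419 CPM in sham mice, and 215, 273 and 196 CPM and 59.6, 36.6 and 94.9 CPM in DOCA-salt mice. The 5 markers of the distal convoluted tubule did not move one way. Slc12a3, the thiazide-sensitive cotransporter, was at 145, 10.0 and 70.7 CPM in sham and 526, 610 and 377 CPM in DOCA-salt mice, and Trpm6 was also higher (means of 36.6 and 210 CPM). Tmem52b (908 and 444 CPM), Emx1 (153 and 92.2 CPM) and Pvalb (2.49 and 0.478 CPM) were lower. Klk1 and S100g, which mark the connecting tubule, had means of 15468 and 25218 CPM in sham and 3205 and 11050 CPM in DOCA-salt mice. The connecting tubule markers Trpv5 (means of 595 and 337 CPM) and Calb1 (2860 and 2080 CPM) were also lower, while Slc8a1 had 7119 and 13162 CPM. The 5 markers of the connecting tubule summed to 42098 to 57852 CPM in sham and 27224 to 32459 CPM in DOCA-salt mice, without overlap. Over the whole lists, the 6 principal markers summed to 2162 to 2368 CPM in sham and 638 to 733 CPM in DOCA-salt mice. Within that list Avpr2 was also lower (means of 110 and 42.0 CPM). Npnt (305 and 358 CPM) and Aqp4 (1.03 and 5.01 CPM) had higher means, and Elf5 had 0.871 and 0.830 CPM. The thin limb markers summed to 112 to 136 CPM and 366 to 543 CPM, mostly from Cryab (means of 105 and 359 CPM) and Jag1 (9.95 and 59.0 CPM). Slc14a2 of that list had a lower mean (5.48 and 2.37 CPM), and its other markers had means of at most 2.96 CPM. The intercalated markers summed to 43.1 to 121 CPM and 129 to 155 CPM, and the 5 markers of the distal convoluted tubule to 1110 to 1281 CPM and 1073 to 1422 CPM. The cluster also held fewer of the cells, 1.4 to 2.3% of a sham mouse's and 0.9 to 1.3% of a DOCA-salt mouse's (log2 change of the share -0.91, adjusted p = 0.0299 over 19 classes), as did the principal cells (-0.66, adjusted p = 0.0366). The assignment of cells between this cluster and the principal cells or the distal convoluted tubule could therefore differ between the groups. The part of this in the changes was not tested.

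With the connecting tubule and principal cells summed together, where 15.3% of genes passed, Atp1b1 was 3036, 3041 and 2879 CPM in sham and 2801, 3108 and 2725 CPM in DOCA-salt mice. These overlapped, with a log2 change of -0.10 (SE 0.142, adjusted p = 0.694). Cells of the distal convoluted tubule were not part of this sum.

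Fxyd4 showed the lowest change of the 6 genes. Its connecting tubule values were 588, 830 and 565 CPM in sham and 197, 232 and 256 CPM in DOCA-salt mice. The groups did not overlap, and it fell by 1.72 on the log2 scale (SE 0.178, adjusted p = 7.95e-06), to 0.30 of the sham level. The share of connecting tubule cells with a Fxyd4 UMI, with every cell thinned to 1000 UMIs, was 33.4 to 46.3% in sham and 14.7 to 18.1% in DOCA-salt mice (exact permutation test, two-sided p = 0.1, the smallest that 3 against 3 mice allow), against 2.45 to 2.55% and 0.264 to 1.77% in T or NK cells. In the principal cells, its main site, Fxyd4 was 6155, 6825 and 5373 CPM in sham and 5713, 5031 and 5243 CPM in DOCA-salt mice, with overlap and a log2 change of -0.15 (SE 0.154, adjusted p = 0.619). The change in the connecting tubule was lower than that in the principal cells by -1.56 (SE 0.132, adjusted p = 4.14e-09).

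The connecting tubule cells were also divided by the water channels. Because Aqp2 itself was lower in DOCA-salt mice and is correlated with Fxyd4, this division does not separate like cells of both groups, and the values are a description. Cells without a UMI of either water channel were 25 of 135, 16 of 179 and 34 of 212 in the sham mice and 59 of 114, 50 of 85 and 58 of 89 in the DOCA-salt mice. In these cells Fxyd4 was 59.4, 26.9 and 77.3 CPM in sham and 87.4, 104 and 91.1 CPM in DOCA-salt mice, with DOCA-salt above. In the cells with such a UMI, which were not tested, it was 631, 872 and 594 CPM and 285, 359 and 552 CPM, with DOCA-salt below. In connecting tubule and principal cells together the change was -0.29 (SE 0.165, adjusted p = 0.273), with 3996, 4386 and 3164 CPM in sham and 2993, 3089 and 3649 CPM in DOCA-salt mice. Summed over all cells of the kidney, where 17.2% of genes passed, Fxyd4 was 210, 275 and 224 CPM in sham and 147, 145 and 174 CPM in DOCA-salt mice and fell by 0.72 (SE 0.126, adjusted p = 0.00735). In such a sum, fewer principal cells and less Fxyd4 per cell cannot be told apart.

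**Figure D3:**
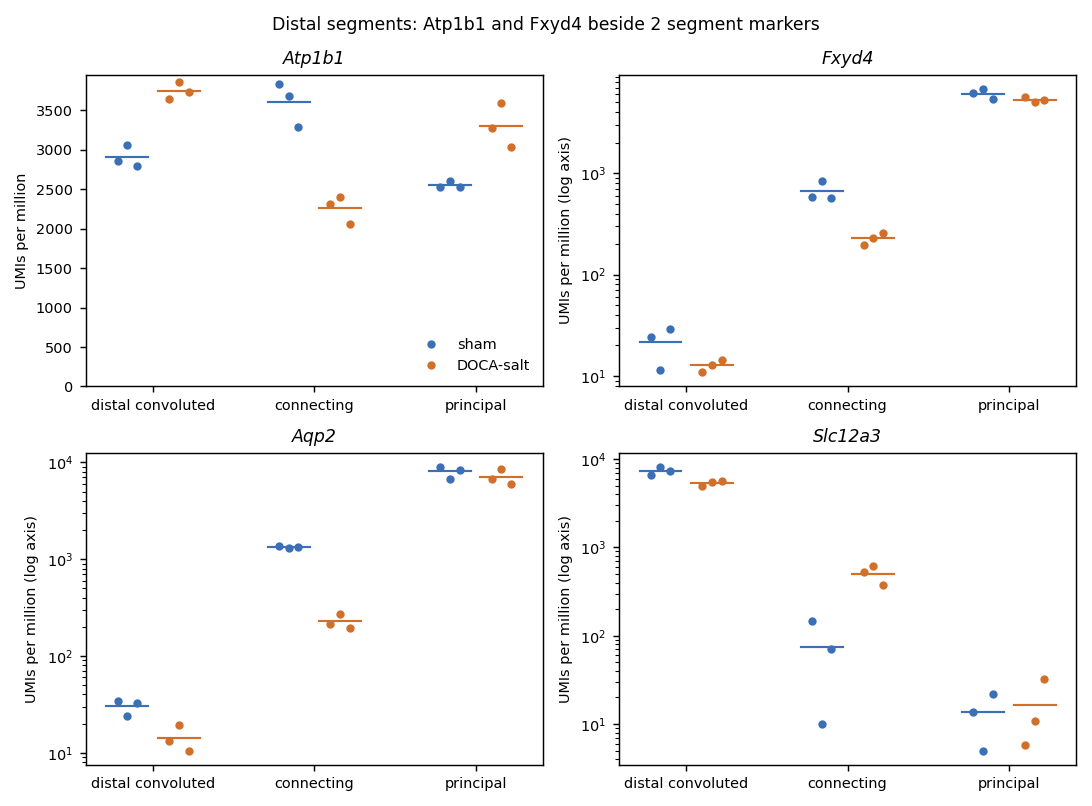
Atp1b1 (linear axis from 0), Fxyd4, the principal cell marker Aqp2 and the distal convoluted tubule marker Slc12a3 (log axes), in CPM, in 3 distal segments. Points are mice and lines are group means. In the connecting tubule the DOCA-salt mice are lower in Atp1b1, Fxyd4 and Aqp2 and higher in Slc12a3.

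Fxyd4 also passed the test in the thin limb, at a level far below that of the principal cells. It was 138, 171 and 154 CPM in sham and 78.3, 74.1 and 49.8 CPM in DOCA-salt mice, which did not overlap, and fell by 1.15 on the log2 scale (SE 0.168, adjusted p = 0.0134, and 0.0518 without the second DOCA-salt mouse). With cells assigned by markers without clusters the change was -0.69 and missed the threshold (adjusted p = 0.217). In T or NK cells Fxyd4 was also lower in the DOCA-salt mice, with means of 45.6 and 10.6 CPM. The mean share of T or NK cells with a Fxyd4 UMI at 1000 UMIs per cell was 2.51% in sham and 1.15% in DOCA-salt mice. In B cells it was 2.23% (SD 1.19) and 2.33% (SD 1.08). These cells held 14 Fxyd4 UMIs in sham and 4 in DOCA-salt mice, too few to tell whether B cells had less. In the Slc14a2-led cluster alone, which held nearly all of it, the values were 168, 200 and 176 CPM and 103, 112 and 60.8 CPM, again without overlap, and the log2 change was -0.96 (SE 0.192, adjusted p = 0.0686). The principal markers summed to 861 to 920 CPM in the thin limb of sham mice and 957 to 1036 CPM in that of DOCA-salt mice. In the intercalated cells Fxyd4 had means of 242 ± 118 CPM in sham and 212 ± 82.0 CPM in DOCA-salt mice, and the groups overlapped (log2 change -0.16, adjusted p = 0.839). The share of these cells with a Fxyd4 UMI at 1000 UMIs per cell did not overlap. It was 10.1 to 14.0% in sham and 7.19 to 9.09% in DOCA-salt mice (exact permutation test, two-sided p = 0.1, the smallest possible).

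Fxyd2, the γ subunit, passed the test in 0 of the 7 segments. In the proximal tubule it was 5466, 4347 and 5736 CPM in sham and 4089, 4444 and 3895 CPM in DOCA-salt mice. The second sham mouse lay within the DOCA-salt range, and the log2 change was -0.39 (SE 0.165, adjusted p = 0.200). In the S3-like clusters the groups did not overlap, with 4676, 3943 and 5070 CPM in sham and 3315, 3499 and 3235 CPM in DOCA-salt mice and a log2 change of -0.47 (adjusted p = 0.0866). Over all cells the change was -0.53 (adjusted p = 0.0691). The proximal tubule, which holds most Fxyd2 UMIs, was 62.3 to 66.9% of the cells in sham and 49.2 to 56.8% in DOCA-salt mice. The log2 change of this share was -0.27 and missed the threshold in edgeR's test of cell shares (adjusted p = 0.200). The second DOCA-salt mouse stood apart here: an unnamed cluster of 689 cells, whose markers were nearest to the proximal tubule, took 615 cells from it. With that cluster this mouse had 5344 proximal tubule cells in place of 4729, and the proximal tubule change was -0.42 for Fxyd2 (adjusted p = 0.150) and 0.07 for Slc9a3 (adjusted p = 0.706).

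Fxyd2 in the connecting tubule was 1341, 1501 and 1918 CPM in sham and 2282, 2313 and 2060 CPM in DOCA-salt mice. Every DOCA-salt mouse was above every sham mouse, with a log2 change of 0.30 (SE 0.168, adjusted p = 0.235). The change was higher than that in the proximal tubule by 0.68 (SE 0.171, adjusted p = 0.00299), a pair chosen after its values were seen. This difference was not recomputed with cells assigned by markers without clusters. The change in the connecting tubule was larger and passed with library size alone as the scaling (0.49), with at most 20% mitochondrial UMIs (0.86) and with cells assigned by markers without clusters (0.82). It was -0.25 in the cells without a Slc12a3 UMI and -1.04 in those without an Aqp2 or Aqp3 UMI, but Slc12a3, Aqp2 and Aqp3 themselves differed between the groups here, so these cells are not alike in both groups and the values are a description. In the distal convoluted tubule, the segment highest in Fxyd2, it was 7296, 5717 and 6836 CPM in sham and 7053, 8255 and 7140 CPM in DOCA-salt mice, with overlap and a log2 change of 0.03 (SE 0.185, adjusted p = 0.951). Relative to the proximal tubule the changes of Fxyd2 differed by 0.43 in the distal convoluted tubule (adjusted p = 0.217) and by 0.25 in the thick ascending limb (adjusted p = 0.488). In the thick ascending limb itself the CPM overlapped, with a log2 change of -0.11 (adjusted p = 0.858). The share of its cells with a Fxyd2 UMI at 1000 UMIs per cell did not overlap. It was 87.4 to 92.5% in sham and 81.9 to 85.8% in DOCA-salt mice (exact permutation test, two-sided p = 0.1, the smallest possible).

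Bsnd was the gene of the 6 that rose. In the intercalated cells it was 98.3, 97.3 and 104 CPM in sham and 157, 130 and 184 CPM in DOCA-salt mice. The groups did not overlap, and the gene rose by 0.69 on the log2 scale (SE 0.142, adjusted p = 0.0190), to 1.61 times the sham level, where 5.16% of genes passed. The change was higher than that in the thick ascending limb by 0.58 (SE 0.125, adjusted p = 0.00427, 6.59% of genes past the threshold). Between the distal convoluted tubule and the thick ascending limb the changes differed by 0.11 (adjusted p = 0.755, 7.12%).

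Both types of intercalated cell lay higher in DOCA-salt mice. In the Slc26a4-led cluster Bsnd was 93.7, 90.1 and 100 CPM in sham and 179, 130 and 201 CPM in DOCA-salt mice and rose by 0.93 (SE 0.175, adjusted p = 0.00799), in a cluster where 6.84% of genes passed. In the Slc4a1-led cluster it was 106, 115 and 112 CPM and 131, 130 and 168 CPM, without overlap, and the log2 change of 0.40 (SE 0.143) missed the threshold (adjusted p = 0.254), where 1% of genes passed. The difference between the 2 clusters was not tested. The share of intercalated cells with a Bsnd UMI at 1000 UMIs per cell was 9.45 to 10.1% in sham and 12.9 to 16.1% in DOCA-salt mice (exact permutation test, two-sided p = 0.1, the smallest possible). This share was also higher without overlap in the distal convoluted tubule, at 4.05 to 5.43% in sham and 5.70 to 6.79% in DOCA-salt mice. At 2000 UMIs per cell the groups overlapped there (8.36 to 12.3% and 10.2 to 13.5%). The CPM of Bsnd in that segment overlapped too, with a log2 change of 0.19 that missed the threshold. In T or NK cells the mean of Bsnd was 0.848 CPM in sham and 1.04 CPM in DOCA-salt mice.

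Other measures moved with this result. The median share of mitochondrial UMIs in intercalated cells was 21.4 to 23.9% in sham and 26.8 to 28.2% in DOCA-salt mice, and the 14 genes of the dissociation response summed to 7156 to 9766 CPM and 5410 to 6537 CPM. Among barcodes with at most 20% mitochondrial UMIs the change of Bsnd in intercalated cells was 0.40 (adjusted p = 0.342), and with 1 mouse left out it ranged from 0.56 to 0.82, with an adjusted p above the threshold without sham mouse 1 or 3 or DOCA-salt mouse 1 or 3 (0.0622 to 0.0885). In the Slc26a4-led cluster the rise passed without any 1 mouse (0.78 to 1.11). This cluster was not recomputed with at most 20% mitochondrial UMIs or with cells assigned by markers. The summed intercalated markers were 7017 to 7861 CPM in sham and 6717 to 6960 CPM in DOCA-salt mice, but single markers moved apart. Slc26a4 (means of 1328 and 988 CPM), Insrr (303 and 214 CPM) and Slc4a9 (1036 and 645 CPM) were lower in DOCA-salt mice without overlap, and the mean of Aqp6 was higher (911 and 1238 CPM). The Slc26a4-led cluster held 206, 165 and 209 cells of sham and 169, 122 and 124 of DOCA-salt mice, and the Slc4a1-led cluster 163, 99 and 149 and 162, 164 and 203. The summed connecting tubule markers in the intercalated cells were 4048 to 5941 CPM in sham and 3101 to 3725 CPM in DOCA-salt mice, without overlap. The part of these measures in the change of Bsnd, over all intercalated cells or within a cluster, was not tested.

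**Figure D4:**
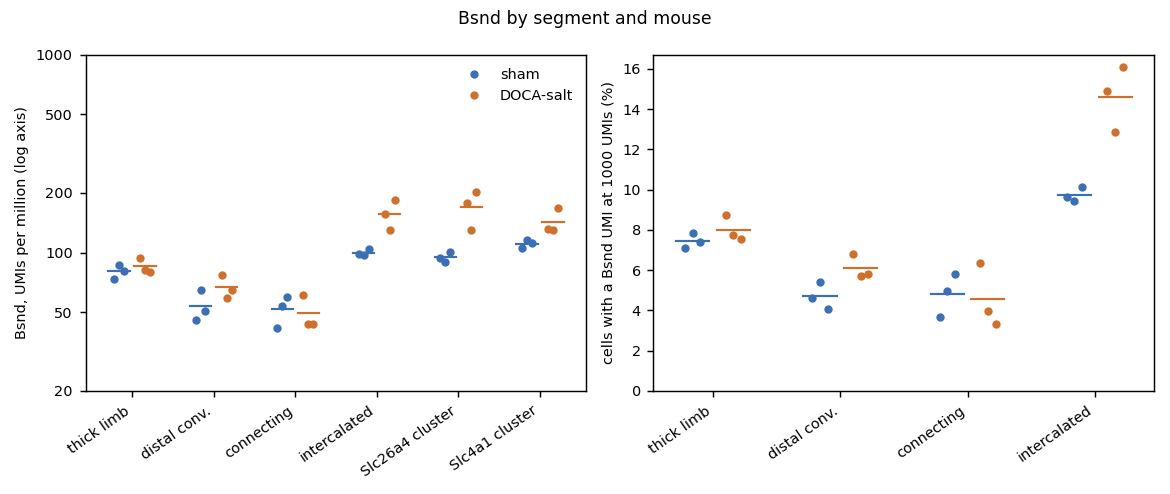
Bsnd in CPM (left, log axis) in 4 segments and the 2 intercalated clusters, and the share of cells with a Bsnd UMI after thinning each cell to 1000 UMIs (right, axis from 0). Points are mice and lines are group means. The DOCA-salt mice lie above all sham mice in the intercalated cells on both scales.

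Small amounts of these transcripts outside their main segment also passed the test, mostly at levels near or below those of T or NK cells. Slc12a1 in the distal convoluted tubule of DOCA-salt mice lay above the T or NK values. Other classes outside the tubule were not set beside these values. Slc12a1 in the distal convoluted tubule was 99.8, 144 and 124 CPM in sham and 82.4, 74.9 and 78.4 CPM in DOCA-salt mice (log2 change -0.78, adjusted p = 0.00439), where 7.04% of genes passed, and in T or NK cells it was 126, 70.7 and 86.5 CPM and 49.3, 22.9 and 42.9 CPM. Slc12a1 in the connecting tubule was 28.9, 27.9 and 127 CPM and 23.0, 20.1 and 30.5 CPM, with a change of -1.58 (adjusted p = 0.0293) that was -0.42 (adjusted p = 0.303) without the third sham mouse and also missed the threshold without any 1 DOCA-salt mouse (adjusted p 0.0597 to 0.102). Fxyd4 in the distal convoluted tubule was 24.0, 11.4 and 29.1 CPM and 10.9, 12.9 and 14.3 CPM (-0.98, adjusted p = 0.0475, lost with any 1 mouse but sham mouse 2 left out, to -0.68, adjusted p = 0.386, without sham mouse 3), against 19.9 to 88.9 CPM and 3.27 to 16.3 CPM in T or NK cells. The summed proximal tubule markers were 405 to 1090 CPM in the distal convoluted tubule of sham mice and 406 to 533 CPM in that of DOCA-salt mice, and 817 to 1306 CPM and 698 to 743 CPM in T or NK cells. The principal cell values of Fxyd2 (567, 316 and 680 CPM in sham, 294, 290 and 385 CPM in DOCA-salt) had lower means than T or NK cells in each group, with overlapping ranges in the sham mice.

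Other genes of sodium transport were counted from lists. Of 14 genes of proximal sodium entry, 1 rose in the proximal tubule, the sodium-sulfate cotransporter Slc13a1 (log2 change 0.65, adjusted p = 0.0410), and 0 fell, where 4.42% of all genes rose and 2.05% fell. The list median was 0.10 against -0.02 over all genes. Of the 12 thick limb genes, 1 fell in the thick ascending limb, the exchanger Slc9a2 (-0.90, adjusted p = 0.0178), and 0 rose, with a median of 0.03, where 0.797% of all genes fell and 0.666% rose. From the distal list the kinase gene Wnk1 (-0.96, adjusted p = 0.00669) and its regulator Klhl3 (-0.62, adjusted p = 0.0350) fell there as well.

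Some of the distal genes also fell in the connecting tubule, where the cells of the cluster differed between the groups in segment markers too. Which cells were assigned to this cluster could differ between the groups, and the part of this in the changes below was not tested. Of 11 genes of distal sodium entry and the aldosterone response, 6 fell there, 0 rose and 5 did not pass, where 12.5% of all genes tested fell and 12.4% rose, with a median of -0.54 against -0.01 over all genes tested. Those that fell were the 3 ENaC subunit genes Scnn1a (-1.08), Scnn1b (-1.42) and Scnn1g (-1.25), the mineralocorticoid receptor gene Nr3c2 (-1.45), Hsd11b2 (-1.83), whose enzyme keeps glucocorticoids from that receptor, and Nedd4l (-0.54), a ubiquitin ligase that removes ENaC from the membrane, with adjusted p between 1.22e-05 and 0.0138. Of 11 tested thick limb genes, 6 fell there and 0 rose, against the same 12.5% and 12.4% of all genes, among them Slc12a1, the potassium channel genes Kcnj1 (-1.31), Kcnj10 (-1.15) and Kcnj16 (-0.80), and the calcium-sensing receptor gene Casr (-1.94). Of 11 tested proximal genes 3 fell and 0 rose, among them the transporters Slc34a1 and Slc6a19 (-1.32 and -1.52), where the summed proximal tubule markers were 514 to 1033 CPM in sham and 345 to 435 CPM in DOCA-salt mice.

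In the principal cells 4 of the 11 distal genes fell and 2 rose, where 3.48% of all genes fell and 4.5% rose. Scnn1b (-0.85), Scnn1g (-0.81), Nr3c2 (-0.55) and Nedd4l (-0.87) fell, and Sgk1 (0.78), a kinase that aldosterone induces, and Wnk1 (0.70) rose, with adjusted p between 0.00277 and 0.0350. Scnn1a passed in the connecting tubule but had a change of 0.08 in the principal cells, a difference that was not tested. In the intercalated cells 2 of 11 distal genes fell, and of 12 thick limb genes 1 fell and 2 rose, Bsnd among them, where 2.45% of all genes fell and 2.71% rose. There Kcnj1 (-0.85), Sgk1 (to 0.50 of the sham level) and Hsd11b2 (-0.73) fell and Slc9a2 rose (0.61). In the distal convoluted tubule 2 of 11 distal, 2 of 12 thick limb and 4 of 13 tested proximal genes fell and 0 rose, where 2.7% of all genes fell and 4.34% rose. There Wnk1 (-0.68), Klhl3 (-1.13) and Slc9a2 (-0.94) fell, beside Slc34a1 (-0.95) and Slc13a3 (-1.27) of the proximal list and Slc12a1.

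**Figure D5:**
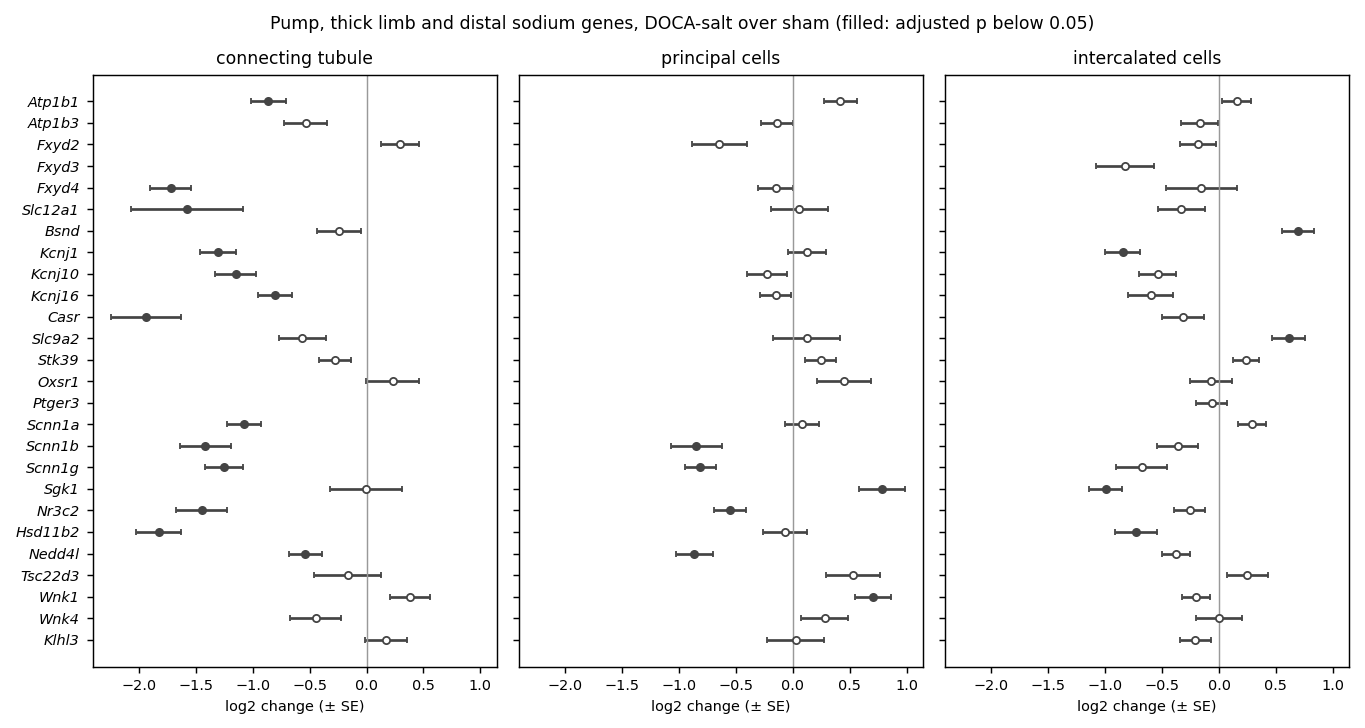
Log2 change (DOCA-salt over sham, with its SE) of pump, thick limb and distal sodium genes in the connecting tubule, principal and intercalated cells, 3 mice a group. Filled points passed the threshold on adjusted p. The 3 ENaC subunit genes, Nr3c2 and Hsd11b2 are filled and negative in the connecting tubule, whose cells also differed between the groups in segment markers.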

How the data were processed

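Single kidney cells of 3 sham and 3 DOCA-salt mice were measured. The authors deposited 1 matrix of UMI counts per mouse (genes by cell barcodes), as whole numbers without normalization, made with Cell Ranger on GRCm39. The methods name release 9.0.0 and the file headers name 8.0.1, and later steps of the study (R 4.0.3, Seurat 4.0.0) left no file used here. Groups were taken from the labels.

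A barcode needed 170 or more genes, 500 or more UMIs, no more than 50% of them mitochondrial and no more than 5% from hemoglobin genes (the mitochondrial limit removed 2282 to 3569 per mouse). Scrublet (scanpy 1.11.5) scored doublets, of which the top 0.8% per 1000 barcodes were left out (4931 in all). Cells were scaled to 10000 UMIs, and 2000 variable genes, 30 principal components, 15 neighbours and the Leiden method (python-igraph 0.11.9, resolution 1) gave 35 clusters. A cluster was named when at least 3 markers of a class were detected and their mean was more than 0.5 (log2) above the other clusters. This limit was set after the clusters were seen. The leading genes of a cluster could not hold more markers of another class. A cluster of few UMIs also needed a marker of its own class among them. By these rules 2 clusters (819 cells) stayed unnamed. Counts were summed per mouse and segment (at least 10 cells) and tested with edgeR 4.0.16 (R 4.3.3), with its filter on low counts. The SE is the size of the change over the square root of F. Levels are CPM of the unscaled sums, and correlations used log2(CPM + 1). Scripts ran in Python 3.11.15 with scikit-learn 1.9.0, pandas 2.3.3, scipy 1.17.1, numpy 2.4.6 and matplotlib 3.10.9.

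The genes, lists and comparisons were chosen with earlier results of these data known. Named are the 6 genes, every list gene that passed the test and averaged 20 CPM or more, and the 3 genes most correlated with each of the 6. Tested on simulated counts with 200 changed genes, edgeR recovered 75.5% of them in the connecting tubule (11 false among 162 calls) and 91% in the intercalated cells (11 among 193). Alternatives were DESeq2 1.42.0, other size factors and filters, other cell sets, and leaving out each mouse. Promoter windows and gene positions came from the GRCm39 genome with the GENCODE annotation. Some genes of the lists are not reported here, though they count in the lists' totals.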

Additional observations from a re-analysis of the deposited data

Results flagged for a closer look

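The following differences between tubule segments in the change from sham to DOCA-salt mice passed the test of the difference itself, each on the log2 scale with the mouse as a block. The change of Atp1b1 in the connecting tubule minus that in the proximal tubule was -0.85, and -0.27 (adjusted p = 0.578) with cells assigned by markers without clusters. The change of Atp1b1 in the principal cells minus that in the proximal tubule was 0.45, a call that was lost in 4 of 6 fits with 1 mouse left out (adjusted p up to 0.266) and with DESeq2's size factors, library size alone, no doublet removal and the largest cluster alone. The change of Bsnd in the intercalated cells minus that in the thick ascending limb was 0.58. The change of Fxyd4 in the connecting tubule minus that in the principal cells was -1.56. The change of Atp1b1 in the connecting tubule was also apart from that in the principal cells (-1.27) and from that in the distal convoluted tubule (-1.06). The change of Fxyd2 in the connecting tubule was apart from that in the proximal tubule (0.68). These 3 pairs were chosen after the values were seen and were not recomputed with cells assigned by markers without clusters.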

How the results depend on the processing

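Outside leaving out a mouse, 402 of 450 recomputed changes kept their direction and their side of the threshold. With cells assigned by markers without clusters, Atp1b1 lost its call in the connecting tubule (-0.28) and against the proximal tubule (-0.27), Fxyd4 lost its call in the thin limb (-0.69), Slc9a3 in the thin limb (1.49, adjusted p = 0.0194) and Fxyd2 in the connecting tubule (0.82, adjusted p = 0.0324) passed, and signs turned for Slc12a1 (-0.075) and Bsnd (-0.014) in the thick ascending limb, Fxyd2 in the distal convoluted tubule (-0.16) and Bsnd in the connecting tubule (0.20). With the largest cluster of a segment alone, Fxyd4 in the thin limb was -0.96, Slc9a3 was -0.11 in the thin limb and -0.12 in the proximal tubule, Atp1b1 was -0.077 in the thin limb, and its differences from the proximal tubule were 0.0095 for the thick ascending limb and 0.46 (adjusted p = 0.272) for the principal cells. With at most 20% mitochondrial UMIs, Atp1b1 was 0.36 in the thick ascending limb and -0.19 in the intercalated cells, Slc12a1 was -0.11 in the thick ascending limb, Fxyd4 was 0.0053 and Bsnd 0.40 in the intercalated cells, and Fxyd2 passed in the connecting tubule (0.86). In connecting tubule cells without an Aqp2 or Aqp3 UMI, Atp1b1 was -0.80 (adjusted p = 0.0786), Fxyd4 0.31 and Fxyd2 -1.04, and without a Slc12a3 UMI Fxyd2 was -0.25, in cells cut by genes that differ between the groups. Atp1b1 in the principal cells against the proximal tubule missed the threshold with DESeq2's size factors (0.43), library size only (0.33) and no doublet removal (0.43, where Fxyd2 in the distal convoluted against the proximal tubule passed, also 0.43). Library size alone turned Atp1b1 in the proximal tubule (0.043) and let Fxyd2 in the connecting tubule pass (0.49). DESeq2 called Slc9a3 in the thin limb (1.03) and Atp1b1 in the principal cells (0.43), and no filter on low counts called the former (1.03) and turned Atp1b1 in the thick ascending limb (0.0019). Without thinning, the share of cells with a UMI differed by -1.90 percentage points for Atp1b1 in principal cells and -0.49 for Slc12a1 in the thick ascending limb. The causes were not tested. Leaving out 1 mouse kept 250 of 282 changes, and with fewer mice the ranges of those that did not hold were 0.37 to 0.53 (Atp1b1, principal cells against proximal tubule), -0.078 to 0.080 (thick ascending limb against proximal tubule), 0.38 to 0.51 (Fxyd2, distal convoluted against proximal tubule, past the threshold without sham mouse 1), -0.064 to 0.031 (Atp1b1, proximal tubule), -0.077 to 0.046 (Atp1b1, thick ascending limb), -1.26 to -0.98 (Fxyd4, thin limb), 0.85 to 1.28 (Slc9a3, thin limb, past the threshold without DOCA-salt mouse 3), -0.074 to 0.11 (Fxyd2, distal convoluted tubule), -0.48 to 0.31 (Fxyd4, intercalated cells), 0.56 to 0.82 (Bsnd, intercalated cells), -1.23 to -0.68 (Fxyd4, distal convoluted tubule), -1.95 to -0.42 (Slc12a1, connecting tubule), -1.13 to -0.75 (Fxyd4, Slc14a2-led thin limb cluster, past the threshold without sham mouse 2) and -0.58 to -0.37 (Fxyd2, S3-like proximal tubule, past it without sham mouse 2). Counts of genes past the threshold ranged over all settings from 98 to 2561 in the proximal tubule (1043 as reported, 253 without DOCA-salt mouse 3), 19 to 491 in the thin limb (91), 51 to 701 in the thick ascending limb (178), 186 to 1076 in the distal convoluted tubule (701), 515 to 3038 in the connecting tubule (2460), 381 to 1324 in the principal cells (840) and 184 to 1320 in the intercalated cells (608). Without sham mouse 2 the count was the highest of the left-out mice in each segment. The mouse numbers do not pair the mice, since same-numbered mice had correlations of -0.449 to 0.00933, and as a block they gave 0.68 for Bsnd in the intercalated cells (adjusted p = 0.0767), 1.00 for Slc9a3 in the thin limb (0.0441), and 246, 53, 346, 478 and 184 genes in the proximal tubule, thick ascending limb, distal convoluted tubule, principal and intercalated cells. The connecting tubule values rest on 85 to 212 cells per mouse.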

Other observations

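Of 10 genes of tubular injury, 0 fell in any segment, and those that rose were 6 of 10 tested in the proximal tubule, 2 of 8 in the thin limb, 1 of 7 in the thick ascending limb, 5 of 6 in the distal convoluted tubule, 6 of 8 in the connecting tubule, 4 of 7 in the principal cells and 3 of 7 in the intercalated cells. Of all genes, 4.42%, 0.533%, 0.666%, 4.34%, 12.4%, 4.5% and 2.71% rose in these segments. In the connecting tubule Lcn2, the gene of the iron-binding protein NGAL, rose from 2.32 to 394 CPM (log2 change 7.23), beside the adhesion molecule gene Vcam1 (4.96), the transcription factor gene Sox9 (5.67), Clu (1.31) and the keratin genes Krt8 (2.17) and Krt18 (1.81). In the principal cells Spp1, the osteopontin gene, rose from 314 to 3254 CPM (3.42), beside Lcn2 (2.02), Krt8 (1.00) and Krt18 (0.88), and in the distal convoluted tubule Lcn2 (5.83), Sox9 (2.38), Krt18 (1.47), Krt8 (1.44) and Spp1 (1.30) rose. Spp1 also rose in the proximal tubule (2.35), the thin limb (1.95) and the intercalated cells (1.01), and Lcn2 in the thin limb (2.49) and the thick ascending limb (2.91). All these passed edgeR's test over all genes.

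Of 14 genes that answer tissue dissociation, all tested, 0 passed in the proximal tubule and the thin limb, 2 fell in the thick ascending limb, 6 rose and 1 fell in the distal convoluted tubule, 2 rose and 7 fell in the connecting tubule, 2 rose in the principal cells and 3 fell in the intercalated cells. Of all genes, 0.797% fell in the thick ascending limb, 2.7% in the distal convoluted tubule, 12.5% in the connecting tubule and 2.45% in the intercalated cells, and 4.34%, 12.4% and 4.5% rose in the distal convoluted tubule, the connecting tubule and the principal cells. In the connecting tubule Fos (-1.04), Jun (-0.58), Junb (-0.94), Egr1 (-0.58), Ier2 (-0.62), Zfp36 (-0.96) and Socs3 (-2.31) fell while Atf3 (0.58) and Hspa1b (1.01) rose. In the distal convoluted tubule Junb, Atf3, Egr1, Ier2, Zfp36 and Socs3 rose (0.64 to 1.38) and Ier3 fell (-0.89). Fosb, Atf3 and Egr1 fell in the intercalated cells (-0.77 to -0.61), Ier2 and Ier3 in the thick ascending limb (-0.73 and -0.98), and Hspa1b and Dusp1 rose in the principal cells (1.22 and 0.70).

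A small urothelial-like cluster held Slc12a1 at 900 CPM in the 1 sham mouse with enough cells and at 2213, 1566 and 1133 CPM in the DOCA-salt mice.

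Over 96 points (16 classes of cells in 6 mice) and 11425 genes, the genes whose log2(CPM + 1) was most correlated with each of the 6 were Cdkl1, Paqr5 and Tmprss2 for Atp1b1 (Pearson's r of the first 0.945), Fabp3, Sdhb and Gm44386 for Fxyd2 (0.857), Aqp2, Mcoln3 and Krt23 for Fxyd4 (0.912), Cldn10, Slc1a1 and Phyhipl for Slc9a3 (0.795), Tmem207, Egf and Pex5l for Slc12a1 (0.859), and Tmem72 and Inpp5j (2 of the 3 closest) for Bsnd (0.895). The points share libraries and depth, and genes are not independent replicates. Nephrectomy, DOCA and salt cannot be told apart in these mice, and transcripts say nothing of the amount or place of the proteins.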
